A study of Arabidopsis thaliana with 6 samples.

Results

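The tonoplast intrinsic proteins (TIPs) are the aquaporins of the plant vacuole membrane, and RNA sequencing counts of their genes were compared between wild-type seedlings of Arabidopsis thaliana and the mutant pp7l-1. The family was taken as 10 loci by their gene codes, out of 33341 genes in each count table, and all 10 were found in the tables. It was chosen with its counts in this comparison known, so its members are described by their values and no p-value is given for them. The wild type carries the name Col in its titles, and pp7l-1 is a mutant of PROTEIN PHOSPHATASE 7-LIKE (PP7L), whose lesion the sources used here do not describe. Both groups were whole seedlings aged 4 days, with 3 libraries each, and no other tissue or treatment was compared. All grew at 22 °C in long days of white light (100 µmol photons per square metre and second), on agar of 0.8% with 1% of sucrose.

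TIPs let water, and in some members also ammonia, urea or hydrogen peroxide, pass the membrane of the central vacuole, which fills most of a growing plant cell. The TIP1 and TIP2 genes serve the large vacuoles of growing and mature vegetative cells, and TIP4;1 is known mainly from roots. The TIP3 pair belongs to the protein storage vacuoles of the maturing seed, and TIP1;3 and TIP5;1 are known from pollen. Several members also have older names, and TIP1;1 is called gamma-TIP here, TIP2;1 delta-TIP, TIP3;1 alpha-TIP and TIP3;2 beta-TIP.

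Library totals ran from 11269557 to 16744328 counts, of which plastid genes took 55.1% to 72.5%. Gene levels are in CPM, the count a gene would have in a library of 1000000 after TMM normalisation (a trimmed mean of expression ratios), and differences are log2 values, pp7l-1 minus wild type, ± the standard error of an edgeR quasi-likelihood fit over 18115 genes. PP7L itself had more reads in the mutant, with 24, 22 and 21 counts in the wild type against 280, 247 and 315 in the libraries labelled pp7l-1, so each direction given here rests on the labels. Replicate 1 of pp7l-1 stood apart, with 7.56% of its counts in nuclear ribosomal RNA genes against 0.00272% to 0.0151% in the other 5 libraries. Without it every tested TIP gene kept its direction. Whether replicates were grown as separate cultures is not stated in the labels, so errors and p-values cover only the spread among these libraries.

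Among the letters before the gene starts, a long run was shared by the seed pair and a shorter one by a TIP2 pair, so these 4 windows are shown. Each is the 250 bases before the annotated start of the gene, from the RefSeq genome and annotation of the assembly TAIR10.1. The submitters' processing notes name TAIR10 as their build. In the windows of alpha-TIP (chr1:27521694-27521943, plus strand) and beta-TIP (chr1:6129775-6130024, plus strand), capitals mark the RY core, the hexamer CATGCA read on both strands, known as part of an element of seed storage protein promoters.
alpha-TIP: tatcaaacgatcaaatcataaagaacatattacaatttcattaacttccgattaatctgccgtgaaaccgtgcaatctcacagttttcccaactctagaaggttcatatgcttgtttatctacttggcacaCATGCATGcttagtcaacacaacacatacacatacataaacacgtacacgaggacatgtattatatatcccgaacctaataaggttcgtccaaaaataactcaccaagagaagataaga
beta-TIP: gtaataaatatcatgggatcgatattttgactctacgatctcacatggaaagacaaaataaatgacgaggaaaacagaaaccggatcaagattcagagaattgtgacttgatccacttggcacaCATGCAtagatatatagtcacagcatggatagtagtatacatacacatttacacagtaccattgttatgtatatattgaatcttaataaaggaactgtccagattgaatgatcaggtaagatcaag
In the windows of delta-TIP (chr3:5505110-5505359, plus strand) and TIP2;3 (chr5:19249623-19249872, minus strand), capitals mark the longest run of letters that both hold on the strand of the gene.
delta-TIP: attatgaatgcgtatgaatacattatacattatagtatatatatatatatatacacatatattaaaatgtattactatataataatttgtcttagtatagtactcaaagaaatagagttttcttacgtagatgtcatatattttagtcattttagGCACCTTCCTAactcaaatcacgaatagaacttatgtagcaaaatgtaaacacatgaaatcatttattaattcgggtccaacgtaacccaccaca
TIP2;3: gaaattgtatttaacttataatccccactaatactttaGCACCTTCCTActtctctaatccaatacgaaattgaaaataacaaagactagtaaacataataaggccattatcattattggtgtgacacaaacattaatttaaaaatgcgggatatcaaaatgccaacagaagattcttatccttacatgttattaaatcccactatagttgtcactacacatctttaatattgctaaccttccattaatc

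The longest run shared by the alpha-TIP and beta-TIP windows was 17 bases, acttggcacacatgcat, which begins 129 bases upstream in one and 136 in the other and holds the RY core. Among 27444 windows of that length before nuclear protein-coding genes, only these 2 (0.00729%) held the run on the strand of the gene. The RY core alone stood in 8.43% of those windows, and in 3 of the 10 TIP windows, those of the seed pair and of TIP1;2. In the alpha-TIP window 2 matches on opposite strands overlap. The run shared by delta-TIP and TIP2;3 was 11 bases and was found on either strand in 3 windows (0.0109%), its own 2 among them. Runs of 11 bases were also shared by 3 other pairs of TIP windows, with 15 to 2345 windows holding each, so that length is not particular to the pair. The other motifs were also searched on both strands. The ABRE core ACGTG stood in 22.9% of all windows and in 3 of the TIP windows, TATAAA in 47.3% and 4, GATAAG in 12.3% and 2, and TGGGCC in 13.7% and 1. These matches describe letters only.

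The encoded proteins were similar in length, from 249 to 268 residues, and each held 2 copies of the Asn-Pro-Ala motif that lines the aquaporin pore. Their identity ran from 39.9%, between TIP1;3 and TIP5;1, to 92%, between TIP2;2 and TIP2;3. It was 86.8% within the seed pair and 85.7% between gamma-TIP and TIP1;2. The longest identical stretch of coding sequence in these 3 close pairs was 26, 20 and 29 bases, in that order. The sources used here do not say how reads that match several genes were counted, so reads of close copies may have been split or dropped.

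As a family, the TIP genes had less RNA in the mutant libraries, and 2 members with very low counts went the other way. The counts of all 10 genes summed to 5817 ± 937 CPM (SD, n = 3) for wild-type libraries and 2344 ± 673 CPM for pp7l-1. As a share of the counts of nuclear protein-coding genes, which does not depend on the scaling or on plastid reads, the family held 1.89%, 1.81% and 2.33% in the 3 wild-type libraries against 1.02%, 0.916% and 0.633% in pp7l-1. The groups did not overlap. In whole seedlings, fewer cells of a type and less RNA per cell cannot be told apart.

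Of the 10 genes, 8 passed the filter on low counts and entered the fit. Beyond an adjusted p of 0.05, 4 were lower in pp7l-1 and 2 higher, beside 11.3% of all 18115 tested genes lower, 10.6% higher and 21.9% in either direction. The groups of 3 did not overlap in CPM for any of the 8, beside 38.1% of all tested genes. The 2 higher genes, the seed pair, passed the filter through the mutant only, so their part in these counts is no support for a rise. The median difference was -1.09 over the 8 and -0.01 over all tested genes. Nothing is read from these counts, since the family was chosen on this comparison.

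**Figure D1:**
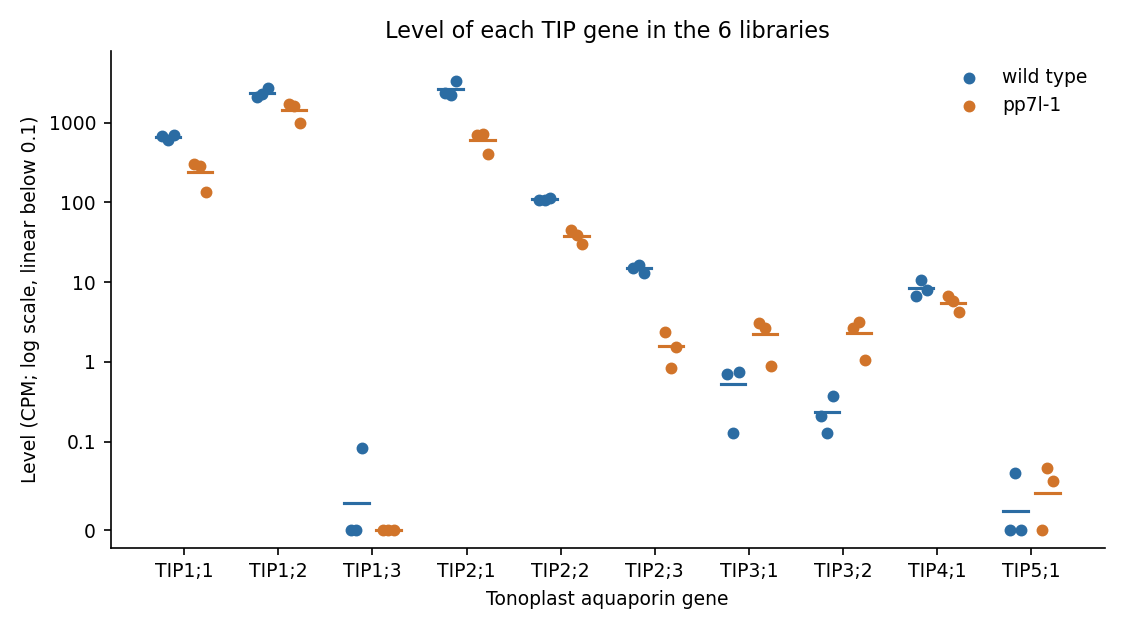
Level of each TIP gene in CPM (vertical axis, log scale, linear below 0.1) in the 3 wild-type libraries (blue) and the 3 pp7l-1 libraries (orange), with bars at the group means. The TIP1, TIP2 and TIP4 genes with counts lie lower in pp7l-1, TIP3;1 and TIP3;2 lie higher, and TIP1;3 and TIP5;1 lie at 0 or 1 count.

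The TIP1 pair of vegetative vacuoles differed in how far it was lower. Gamma-TIP (AT2G36830, chromosome 2, 15445294 to 15446621, plus strand) had 9757, 9487 and 7595 counts in the wild type and 3690, 4133 and 2432 in pp7l-1. On the CPM scale this was 668.5 ± 50.8 (SD, n = 3) and 241.7 ± 92.5, a log2 difference of -1.47 ± 0.29. Every mutant library lay below every wild-type library, and pp7l-1 replicate 3 was the lowest.

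TIP1;2 (AT3G26520, chromosome 3, 9722443 to 9723904, minus strand), its nearest relative in the family by sequence, had 29642, 35494 and 29091 counts in the wild type and 21168, 23109 and 17735 in pp7l-1. These gave 2360 ± 308 and 1443 ± 400 CPM, a log2 difference of -0.71 ± 0.30. The groups did not overlap in CPM, with 2097 as the lowest wild-type value and 1734 as the highest mutant one, but the gene was not past the threshold. Under DESeq2 it was, with a log2 difference of -0.70.

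Delta-TIP (AT3G16240, chromosome 3, 5505360 to 5507050, plus strand), which passes water and ammonia, had the highest mean level of the wild type, though TIP1;2 had more counts in replicate 2. It had 33248, 34990 and 36190 counts there and 8477, 10399 and 7358 in pp7l-1. Its level was 2654 ± 612 CPM and 609.1 ± 174 CPM, a log2 difference of -2.12 ± 0.32, or 4.36-fold less. The gap between the groups was wide, since the lowest wild-type library was at 2251 CPM and the highest of pp7l-1 at 723.6 CPM.

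Counted genes overlap at the delta-TIP locus. The long non-coding RNA AT3G03265 overlaps the locus on the opposite strand and shares 46 of its own 445 exon bases with delta-TIP. AT3G16250 shares 120, so that 14% of the exon bases of delta-TIP also belong to another counted gene. AT3G03265 had 6064, 5879 and 5727 counts in the wild type and 1558, 1675 and 1255 in pp7l-1, with a log2 difference of -2.09 ± 0.26. AT3G16250 had 107, 91 and 89 against 136, 137 and 269, the other direction, with a log2 difference of 0.73 ± 0.21. The ratio of AT3G03265 to delta-TIP overlapped between the groups, at 0.182, 0.168 and 0.158 in the wild type and 0.184, 0.161 and 0.171 in pp7l-1. The sources used here do not say whether the counting used strand, so reads in the shared bases cannot be assigned to 1 gene.

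The other 2 members of the TIP2 group, both known from roots, have closely similar proteins but stood apart in size of difference. TIP2;2 (AT4G17340, chromosome 4, 9698940 to 9700472, plus strand) had 1532, 1679 and 1231 counts in the wild type and 551, 565 and 548 in pp7l-1. It lay at 110.2 ± 3.48 and 38.31 ± 7.38 CPM, a log2 difference of -1.53 ± 0.20. The wild-type libraries were within a few CPM of each other, and all lay far above those of pp7l-1.

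TIP2;3 (AT5G47450, chromosome 5, 19248249 to 19249622, minus strand) had 214, 255 and 141 counts in the wild type and 29, 12 and 28 in pp7l-1. Its level was 14.88 ± 1.68 and 1.589 ± 0.771 CPM, and its log2 difference of -3.25 ± 0.27 was the furthest below 0 in the family. The groups did not overlap, and pp7l-1 replicate 2 was the lowest.

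TIP4;1 (AT2G25810, chromosome 2, 11012499 to 11014171, plus strand), the other root member, had 95, 163 and 86 counts in the wild type and 81, 83 and 75 in pp7l-1. It lay at 8.396 ± 1.92 and 5.528 ± 1.25 CPM, a log2 difference of -0.62 ± 0.23 that was not past the threshold. The groups came close, with 6.72 CPM in wild-type replicate 1 and 6.635 CPM in pp7l-1 replicate 1. Without wild-type replicate 1 the log2 difference was -0.76, and without the filter on low counts it was -0.60, both past the threshold. It was -0.22 by library size alone and -0.42 without wild-type replicate 2 or without pp7l-1 replicate 3, none of them past it.

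The seed pair was higher in the mutant, at levels near the limit of detection. Alpha-TIP (AT1G73190, chromosome 1, 27521944 to 27523332, plus strand) had 10, 2 and 8 counts in the wild type and 38, 38 and 16 in pp7l-1. Its level was 0.5261 ± 0.345 and 2.216 ± 1.17 CPM, a log2 difference of 2.08 ± 0.55. The groups did not overlap, but the lowest mutant library, replicate 3 at 0.8901 CPM, lay close to the highest of the wild type at 0.7423 CPM. Without wild-type replicate 2 the log2 difference was 1.56, and without pp7l-1 replicate 1 it was 1.77, neither past the threshold.

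Beta-TIP (AT1G17810, chromosome 1, 6130025 to 6131627, plus strand) had 3, 2 and 4 counts in the wild type and 32, 45 and 19 in pp7l-1. It lay at 0.2374 ± 0.123 and 2.27 ± 1.08 CPM, a log2 difference of 3.26 ± 0.54. All 3 mutant libraries lay above the wild type, again with replicate 3 as the lowest. Both genes passed the filter through the mutant only, with 0 of 3 wild-type and 3 of 3 pp7l-1 libraries over its cut-off of 0.713 CPM (before TMM), so they could enter the fit only if they were higher there.

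Both loci of the pair overlap genes on the opposite strand. Alpha-TIP shares 24.6% of its exon bases with AT1G73200, which had a log2 difference of 0.37 ± 0.19. Beta-TIP shares 47.1%, mostly with the non-coding RNA AT1G05333, all of whose 462 bases lie within it and which had 3, 2 and 1 counts in the wild type and 12, 21 and 8 in pp7l-1. Reads of the seed pair in these shared bases are therefore uncertain as to strand.

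The pollen members were at the floor of the data. TIP1;3 (AT4G01470, chromosome 4, 624786 to 625885, minus strand) had 1 count, in wild-type replicate 3. TIP5;1 (AT3G47440, chromosome 3, 17481996 to 17483158, plus strand) had 1 count in each of 3 libraries, 1 of the wild type and 2 of pp7l-1. A count of 0 in a library allows up to 3 counts, or 0.179 to 0.266 CPM of the total before TMM, for counting error only, so no difference was detectable and no fold is given.

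Set against gene length, the order of the members changed at the top. On the scale of CPM per kilobase of exon, delta-TIP stood first in the wild type (1894 to 2824) and TIP1;2 second (1625 to 2092), with ranges that overlapped. In pp7l-1 TIP1;2 was first (765 to 1344) and delta-TIP second (344 to 609), with no overlap. Gamma-TIP and TIP2;2 followed in both groups, and TIP2;3 dropped from the fifth place to the eighth. There its range (0.714 to 2.03) overlapped those of alpha-TIP (0.755 to 2.64) and beta-TIP (0.901 to 2.67), so the order of these genes in pp7l-1 was not resolved. Among 27444 nuclear protein-coding genes ordered by level per length, delta-TIP ranked 11, 11 and 8 in the wild-type libraries and 39, 38 and 51 in pp7l-1. TIP1;2 ranked 13, 13 and 12 against 15, 15 and 28, so that it lost fewer places.

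**Figure D2:**
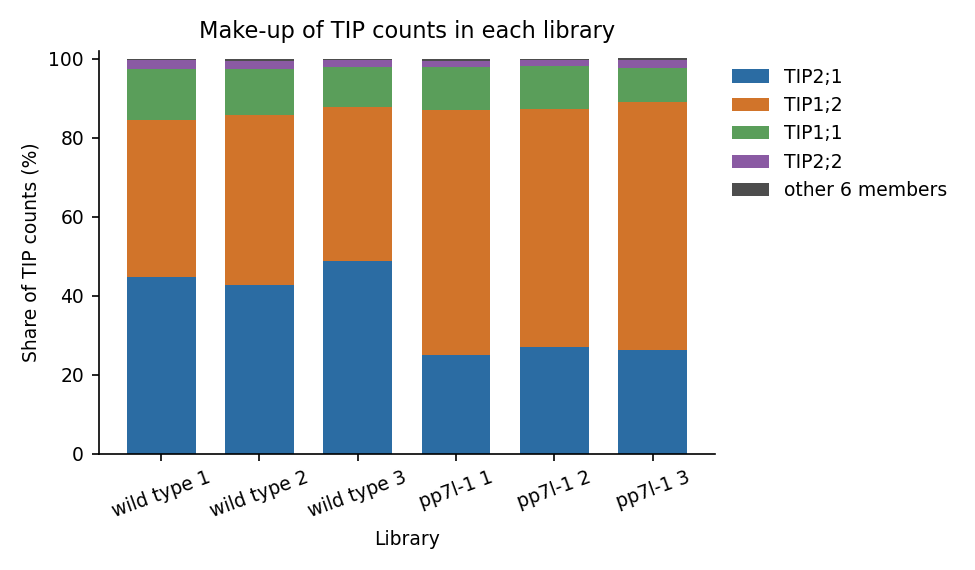
Share of each member in the summed TIP counts (vertical axis, percent) of each of the 6 libraries (horizontal axis). TIP2;1 takes 42.6% to 48.7% of TIP counts in the wild type and 24.9% to 27.1% in pp7l-1, and TIP1;2 takes 39.1% to 43.2% and 60.2% to 62.9%.

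The make-up of the family's counts differed between the genotypes without any scaling between libraries. Delta-TIP made up 45.3 ± 3.08% (SD, n = 3) of TIP counts in the wild type and 26 ± 1.1% in pp7l-1, while TIP1;2 made up 40.7 ± 2.21% and 61.7 ± 1.38%. Gamma-TIP held 10.2% to 13.1% in the wild type and 8.62% to 10.8% in pp7l-1, with overlapping groups. Since these are shares of one sum, a smaller part of delta-TIP alone raises the rest.

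**Figure D3:**
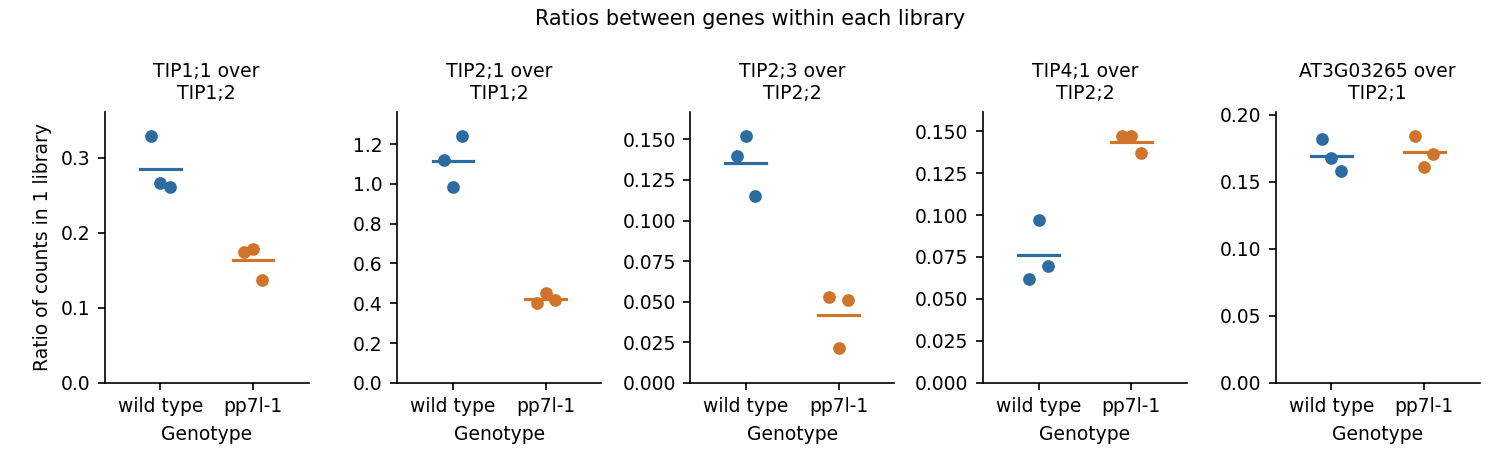
Ratios of the counts of pairs of genes within 1 library (vertical axis, linear from 0) for the 3 wild-type (blue) and 3 pp7l-1 (orange) libraries, with bars at the group means. The 4 ratios between TIP genes shown here do not overlap between the genotypes, and the ratio of the non-coding RNA AT3G03265 to TIP2;1 does. The ratio of TIP3;2 to TIP3;1, not shown, also overlaps. No share over other pairs of genes was computed, so nothing is read from the count.

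Ratios between members within a library are also free of scaling. For gamma-TIP over TIP1;2 they were 0.329, 0.267 and 0.261 in the wild type and 0.174, 0.179 and 0.137 in pp7l-1. For delta-TIP over TIP1;2 they were 1.12, 0.986 and 1.24 against 0.4, 0.45 and 0.415, and for TIP2;3 over TIP2;2 they were 0.14, 0.152 and 0.115 against 0.0526, 0.0212 and 0.0511. In both close vegetative pairs, gamma-TIP with TIP1;2 and TIP2;3 with TIP2;2, the ratio was smaller in every mutant library than in any of the wild type. The ratio of TIP4;1 to TIP2;2 was larger in pp7l-1, at 0.147, 0.147 and 0.137 against 0.062, 0.0971 and 0.0699. The ratio within the seed pair, beta-TIP over alpha-TIP, overlapped at 0.3, 1 and 0.5 against 0.842, 1.18 and 1.19. Unequal ratios show unequal change, not that a gene was steady. How often ratios of other pairs of genes part the genotypes was not computed.

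Within the mutant group, replicate 3 had the lowest CPM for 7 of the 8 tested members, TIP2;3 being the exception. Its TMM factor of 1.35 was the largest of the 6, against 0.753 to 1.09 in the others, and all CPM values move with it. By library size alone the log2 differences were smaller for the members that were lower (-1.10 for gamma-TIP, -0.32 for TIP1;2, -1.72 for delta-TIP and -0.22 for TIP4;1), and no tested member changed direction.

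The genes most like 2 members across the 6 libraries were found by Pearson's r of log2 CPM among 2106 genes of at least 20 CPM on average. A small constant was added to CPM before the log, which narrowed the spread of low levels, as of beta-TIP in the wild type. Here r takes in the difference between the genotypes as well as the spread within each, and it carries no p-value. PSAL, named below, had a log2 difference of only -0.36 ± 0.26. For TIP1;2, the member with the highest mean level over all 6 libraries, they were the transcription factor genes ERF4 (r = 0.992) and ERF7 (r = 0.991) and PSAL (r = 0.988), for a subunit of photosystem I. The other member was beta-TIP, whose log2 difference of 3.26 was barely above that of TIP2;3 in size. It was below that of TIP2;3 under limma voom (3.03 against -3.34) and without wild-type replicate 1, wild-type replicate 2 or pp7l-1 replicate 1. For beta-TIP they were PKT3 (r = 0.994), for a thiolase of fatty acid breakdown, LIN2 (r = 0.992), for coproporphyrinogen oxidase, and CRU3 (r = 0.987), for the seed storage protein cruciferin, which is CRC below. CRU3 was at 1.66 CPM in the wild type and 39.9 CPM in pp7l-1, so it met the cut-off of 20 CPM only through the mutant. An r over 0.95 was found for 23 genes with TIP1;2 and 17 with beta-TIP, so the named genes are not set apart.

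The remaining aquaporins, mostly of the plasma membrane, were mixed. Of 25 other aquaporin genes 20 were tested, and by edgeR's quasi-likelihood test with Benjamini-Hochberg adjustment over all genes 5 fell and 2 rose in pp7l-1, beside 11.3% of all tested genes lower and 10.6% higher, with a median log2 difference of -0.25. By library size alone, which moved the median of all tested genes from -0.01 to 0.41, 1 fell and 3 rose, so the balance of directions depends on the scaling. The number past the threshold was 4 when replicate 1 of the wild type was left out, and 4 when replicate 1 of pp7l-1 was. The plasma membrane gene PIP2;4 (AT5G60660), known from roots, fell from 26.7 ± 6.25 to 1.89 ± 0.777 CPM (log2 difference -3.83 ± 0.28, adjusted p = 3.51e-07). The nodulin-like NIP3;1 (AT1G31885) was at 1.54 ± 0.243 and 0.559 ± 0.305 CPM, and 1 of 3 mutant libraries was over the filter's cut-off, so it entered the fit through the wild type. Its call was lost by library size alone, at -1.04, and without 4 of the 6 single libraries. NIP1;2 rose by 1.24 ± 0.23 (adjusted p = 0.00146) and PIP2;5 by 1.06 ± 0.25 (adjusted p = 0.00688). Among the subfamilies, 2 of 5 PIP1 genes fell, 1 of 8 PIP2 genes fell and 1 rose, 2 of 4 tested NIP genes fell and 1 rose, and none of the 3 SIP genes passed the test.

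**Figure D4:**
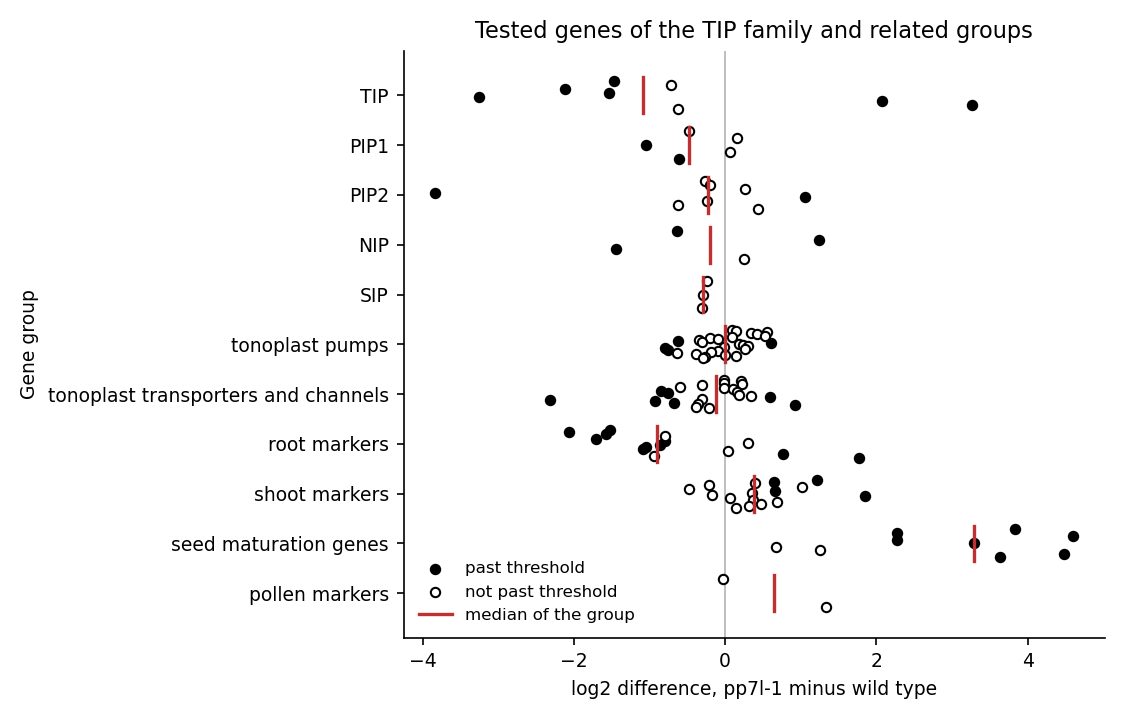
Difference of each tested gene between the genotypes (horizontal axis, log2, pp7l-1 minus wild type) for the TIP family and the gene groups set beside it (vertical axis). Filled points passed the adjusted threshold of 0.05, open points did not, and red bars mark the medians, which lie at -1.09 for the TIP genes, -0.01 for the tonoplast pumps and 3.29 for the seed maturation genes.

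The proton pumps of the same membrane mostly did not pass the test. Of 29 genes for the V-ATPase, the vacuolar pyrophosphatase AVP1 and vacuolar calcium pumps, 28 were tested, 3 fell and 1 rose, beside 21.9% of all tested genes called, and their median log2 difference was -0.01. By library size alone 7 rose and none fell, and without pp7l-1 replicate 1, or without replicate 3, 0 passed in either direction. With the other libraries left out in turn, the count was 1 for wild-type replicate 1, 3 for its replicate 2, 1 for its replicate 3 and 4 for pp7l-1 replicate 2. The membrane ring genes VHA-c1 and VHA-c2, whose close copies may share reads, fell by 0.80 ± 0.24 (adjusted p = 0.0258) and by 0.76 ± 0.24 (adjusted p = 0.0299) on the log2 scale. The stalk gene VHA-E3 fell by 0.62 ± 0.20 (adjusted p = 0.0366) and VHA-G1 rose by 0.61 ± 0.20 (adjusted p = 0.0433). AVP1 went from 352 ± 112 to 515 ± 91.7 CPM and did not pass (adjusted p = 0.149).

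Other carriers and channels of the vacuole membrane gave 5 genes that fell and 2 that rose among 22 tested of 25, beside 11.3% and 10.6% of all tested genes, with a median log2 difference of -0.12. By library size alone 1 fell and 2 rose. The sugar carrier SWEET16 fell from 9.88 ± 1.42 to 1.98 ± 0.0877 CPM (log2 difference -2.31 ± 0.21, adjusted p = 3.73e-06), as did its relative SWEET17, by 0.92 ± 0.20 (adjusted p = 0.00383). The glucose exporter ERDL6 fell by 0.85 ± 0.20 (adjusted p = 0.00654). TMT2, a gene for sugar import into the vacuole with 13.1% of its exon bases shared with another gene, rose by 0.92 ± 0.20 (adjusted p = 0.00465). The falls of SWEET17 and ERDL6 were not past the threshold by library size alone.

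Markers of organs and cell types were set beside the family. Of 25 root markers 14 were tested, and 8 fell and 2 rose, beside 11.3% and 10.6% of all tested genes, with a median log2 difference of -0.90. By library size alone 5 fell and 2 rose, with a median of -0.50. With each library left out in turn, 6 to 8 fell and 1 to 2 rose. The genes of the Casparian strip scaffold CASP2 and CASP5 fell by 2.06 ± 0.29 (adjusted p = 0.000152) and 1.70 ± 0.35 (adjusted p = 0.00277). Not all such genes passed, with CASP4 at -0.79 ± 0.39 and ESB1, with 84.3% of its exon bases shared, at 0.30 ± 0.32. SHR, a regulator of root radial pattern, was at 0.782 ± 0.382 and 2.8 ± 0.719 CPM, and only 1 of 3 wild-type libraries was over the filter's cut-off, so it entered the fit through the mutant. The summed level of the list was 674 to 777 CPM in the wild type and 987 to 1232 CPM in pp7l-1, but it was carried by 1 gene, the glucosidase PYK10, which rose from 616 ± 60 to 1041 ± 134 CPM (adjusted p = 0.0364). With a replicate block, and without any single library other than pp7l-1 replicate 2, PYK10 was not past the threshold, at log2 differences of 0.67 to 0.83. Without PYK10, a sum chosen after its values were seen, the other 24 markers came to 88.5 to 97.5 CPM in the wild type and to 42.7 to 58 CPM in pp7l-1. No root marker had a count of 0 in all libraries. Among the TIP genes known from roots, TIP2;2 and TIP2;3 were lower in pp7l-1, and TIP4;1 was not past the threshold. Gamma-TIP and delta-TIP, of vegetative vacuoles, were lower too, with log2 differences of -1.47 ± 0.29 and -2.12 ± 0.32. Of the root markers that passed, SHR and PYK10 were higher. The part of root cells in the TIP result was not tested.

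Of 18 shoot markers 16 were tested, and 4 rose and 0 fell, with 21.9% of all tested genes called in either direction and 10.6% higher. The median log2 difference was 0.38. The epidermal genes PDF1, FDH and ATML1 rose by 1.85 ± 0.19 (adjusted p = 1.08e-05), 0.66 ± 0.19 (adjusted p = 0.021) and 0.65 ± 0.19 (adjusted p = 0.0265), and the leaf regulator AS1, with 17.2% of its exon bases shared, by 1.22 ± 0.28 (adjusted p = 0.00572). The list summed to 263 to 310 CPM in the wild type and to 333 to 392 CPM in pp7l-1. By library size alone 10 rose, while 2 did when replicate 1 of the wild type was left out, and 2 when its replicate 3 was. The part of shoot cells in the TIP result was not tested.

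Seed maturation genes were set beside the seed pair of TIP genes. Of 20 genes 9 were tested, 7 rose and 0 fell beside the 10.6% of all tested genes called higher, and their median log2 difference was 3.29, or 2.49 over all 20 without the filter. Of the 9, 3 were over the filter's cut-off in all wild-type libraries, 2 in some and 4 in none, so at least the last 4 entered the fit only through the mutant and the count is no support for a rise. The cruciferin genes CRC and CRA1 rose from 1.66 ± 0.6 to 39.9 ± 24.2 CPM (adjusted p = 9.4e-06) and from 1.97 ± 0.209 to 28.2 ± 16 CPM (adjusted p = 7.86e-06). The seed albumin genes SESA3 and SESA5 went from 0.232 ± 0.15 to 5.28 ± 3.03 CPM and from 0.448 ± 0.0562 to 5.7 ± 3.09 CPM, and no p is given since both entered the fit through the mutant only. Reads of such close copies may be shared. The list summed to 10.7, 7.79 and 11.4 CPM in the wild type and to 145, 115 and 40.9 CPM in pp7l-1, and replicate 3 was the lowest of the mutant libraries, as it was for both TIP3 genes. Of the 6 regulators in the list, none of which was tested, LEC1, LEC2 and FUS3 had at most 2 counts in any library. ABI3 had 1, 7 and 2 counts in the wild type and 5, 8 and 18 in pp7l-1, ABI4 had 0, 0 and 0 against 2, 4 and 6, and ABI5 had 3, 1 and 1 against 5, 5 and 4. The rises were 11 of 12 tested genes without pp7l-1 replicate 3, and 12 of 20 with no filter on low counts. The part of remaining seed material in the TIP3 result was not tested.

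Of 8 pollen markers 2 were tested, and 0 passed edgeR's test in either direction, with 1 at an unadjusted p under 0.05 and 0 past the threshold by DESeq2 or limma voom. The list summed to 1.48 to 3.93 CPM in the wild type and to 2.85 to 3.36 CPM in pp7l-1. Most of that came from the receptor kinase genes ANX1, at 1.75 ± 0.937 and 1.73 ± 0.385 CPM, and BUPS1, at 0.38 ± 0.399 and 1.07 ± 0.517 CPM. The pollen-specific enzyme genes VGD1 and PPME1 had 0 counts in the wild type and at most 1 in a mutant library. These levels lie beside the 0 or 1 counts of TIP1;3 and TIP5;1.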

How the data were processed

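The authors deposited 1 table of raw read counts per gene for each of the 6 libraries, not normalised. Trimmomatic, FastQC, TopHat2 2.1.1 and featureCounts, and the build TAIR10, are named per the submitters' processing notes, and RNA was total RNA prepared with an Illumina TruSeq kit per the labels' protocols. The annotation, and the handling of strand, overlaps and multiple matches, are not given in the sources used here. Starting from these counts, low genes were removed with filterByExpr (minimum count 10), and the rest were scaled by TMM (trimmed mean of M values) and fitted with edgeR 4.0.16 in R 4.3.3 (glmQLFit and glmQLFTest, genotype only). P-values were adjusted by Benjamini-Hochberg over 18115 genes with a threshold of 0.05, and a standard error is the log2 difference divided by the square root of F. The script was tested on simulated data. Alternatives were RLE scaling, library size alone, TMM on nuclear genes only, no filter, a filter of 1 CPM in 3 libraries, DESeq2 1.42.0, limma voom (limma 3.58.1), a replicate block, and each library left out.

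The members and the lists (other aquaporins, tonoplast pumps, tonoplast transporters and channels, and markers of root, shoot, seed maturation and pollen) were chosen with earlier results of these data known. Named are all members and, per list, the 4 genes past the threshold with the largest log2 difference, or the 2 most abundant where none passed. Of these, 1 root marker is not reported here. PYK10, CASP4, ESB1, AVP1, ABI3, ABI4, ABI5, LEC1, LEC2, FUS3, VGD1 and PPME1 were named after their values were seen. Coordinates, sequences and gene lengths come from RefSeq's TAIR10.1, matched by gene code. Replicates of a group differed by more than counting noise, with a chi-square per degree of freedom of 15.6 to 27 among wild-type pairs and 85.2 to 139 among pp7l-1 pairs.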

Additional observations from a re-analysis of the deposited data

How the results depend on the processing

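All 8 tested TIP genes kept their direction in all 14 alternatives. Of the 112 pairs of a gene and an alternative, 107 left the side of the threshold unchanged. The count of TIP genes past it ran from 5 to 7 when each library was left out, and the count over all genes from 2671 to 4365. By library size alone, 85.5% of all calls were higher in pp7l-1, against 48.6% under TMM, and the median difference of all genes was 0.41. Counts past the threshold were then 4 for the other aquaporins, 7 for the pumps, 3 for the transporters and channels, 10 for the shoot markers and 1 for the pollen markers. Without the filter on low counts they were 12 for the seed maturation genes and 1 for the pollen markers. With each library left out in turn, the counts ran from 4 to 6 for the other aquaporins, 0 to 4 for the pumps, 2 to 4 for the shoot markers, 6 to 11 for the seed maturation genes and 0 to 1 for the pollen markers, the 1 coming without wild-type replicate 2. The causes were not tested. Of the 27 named genes of the lists for which the alternatives were compared, ANX1 alone did not keep its direction. It changed sign to 0.39 by library size alone, 0.06 with limma voom and 0.01 with the replicate block, and ran from -0.29 to 0.53 with a library left out. The VHA genes, NIP3;1, FDH, ATML1 and PYK10 lost their calls without some libraries, and all but VHA-G1, FDH, ATML1 and PYK10 also by library size alone.

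Replicate numbers gave no clear sign of pairing between the groups. Same-numbered libraries correlated in their deviations at 0.11, -0.0258 and 0.0644. Of the wild-type libraries only replicate 1 correlated best with its own number. So few values cannot settle whether the libraries were paired. With a replicate block 6 TIP genes and 4153 genes in all passed, against 3972 genes without it, and no TIP call changed. TIP3;1, TIP3;2, TIP1;3 and TIP5;1 are limited by depth.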
